A study of Mus musculus with 6 samples.

Results

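Fatty acid elongases and desaturases are the membrane enzymes that lengthen fatty acyl chains and place double bonds in them, and 10 of their genes were followed here in mouse liver under a control diet and a diet with restricted carbohydrate. The members were all probes outside the control spots whose gene name was Elovl1, Elovl2, Elovl3, Elovl5, Elovl6, Elovl7, Fads1, Fads2, Fads3 or Scd2. That gave 12 probes of the 39429 on the array and 10 of the 19616 features tested, a feature being the brightest probe of each gene name that passed a filter on background, so all 10 members were tested. Signals were measured on one-colour Agilent arrays of 3 male C57BL/6 mice per diet, 1 array per mouse. Every mouse, on either diet, had received through the tail vein, by hydrodynamic injection, a transposon vector with human HrasG12V, shp53 (by its name a short hairpin RNA against p53) and GFP4, so no group lacked the vector. The mice were 5 weeks old when feeding began, and the RNA was total RNA from liver outside the tumours, extracted with Trizol. The sample titles call both diets supplemented and name no supplement, and the sample labels describe the second diet as moderately restricted in carbohydrate, with 1 week of feeding before the injection and 5 weeks of diet before the mice were killed, while the series text names calorie restriction mimetic phytochemicals in the same formula and gives 2 weeks and 4 weeks. A part of the carbohydrate content and a part of the phytochemicals therefore cannot be told apart here.

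Chain elongation takes place on the endoplasmic reticulum in a cycle of 4 reactions, of which the Elovl proteins catalyse the condensation with malonyl-CoA and set which chains are lengthened. The Fads proteins and the stearoyl-CoA desaturases insert double bonds with electrons passed from NADH by cytochrome b5 reductase and cytochrome b5. In liver these enzymes turn newly made palmitate into longer and monounsaturated chains, and turn the essential fatty acids of the diet into arachidonic and docosahexaenoic acid. Several of the genes are textbook targets of SREBP-1c, the insulin-responsive activator of lipid synthesis genes, and of the fatty acid sensor PPAR alpha.

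Each probe is a 60-base oligonucleotide, and the first 30 bases of 5 are given here, those of the 3 called members with the largest rise and of Fads3, the member that fell, 5′ to 3′ as designed, in lower case throughout because no base is singled out. Probe positions are those of the array files, on the mm9 build. The Elovl3 probe lies at chr19:46209762-46209821, the Elovl6 probe at chr3:129341248-129341307, the Fads2 probes at chr19:10137760-10137819 and chr19:10163229-10163288, and the Fads3 probe at chr19:10132641-10132700.
Elovl3: ggcctggtaggcgcttaataaatgtctttt
Elovl6: cctaggccctaaacccatattcagagggaa
Fads2, brighter probe: tttagctgttgtgttaacatttcctacaga
Fads2, dimmer probe: agctggatggctgcaacatgactatggcca
Fads3: taaaatgacacggtgagcatagcatgtttt
Among the 17 probes of the 10 members and of Scd1, Scd3 and Scd4, the longest run of bases that any of the 136 pairs had in common was 9, so the members' probes carried different sequences although the genes are paralogues.

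The 75th percentile of the signal, to which each array was scaled, ran from 287 to 574, and 23527 to 25816 of 39429 probes per array were well above background. Correlations of the log2 signals ran from 0.976 to 0.988 between mice of one diet and from 0.925 to 0.947 between diets. The 12 hepatocyte markers were well above background on all 6 arrays, and limma called 0 of the 12, with 2 at an unadjusted p under 0.05. Of these markers 5 were saturated on all 6 arrays, so a change in those 5 could not be measured, and Apoh was saturated on 4. Markers of other cells moved with the diet: 12 of 12 macrophage and Kupffer cell markers fell, their summed level relative to the 75th percentile running from 229 to 303 in control mice and from 39.5 to 56.9 in restricted mice. Of the stellate cell and fibroblast markers 6 of 10 fell (114 to 149 against 46.5 to 76.0), and of the proliferation markers 9 of 10 fell (11.7 to 18.2 against 4.96 to 6.24). Among endothelial markers 4 of 10 rose (26.0 to 38.5 against 43.5 to 57.3). Neutrophil markers fell in 6 of 10 cases and rose in 1 (151 to 183 against 91.8 to 135). That sum rests largely on Csf3r, which differed by 0.03 on the log2 scale (limma adjusted p = 0.94), so it understates the fall of the 6. The stellate sum rests largely on Dcn, which fell by 0.87. T, NK and B cell markers fell in 3 of 8, and bile duct markers in 3 of 7 (4.50 to 5.48 against 0.913 to 1.92). Of 6 adipocyte markers 1 rose (1.75 to 8.75 against 2.93 to 9.77), and the defining Adipoq and Plin1 did not pass the background filter. The counts of endothelial, T, NK and B cell, bile duct and adipocyte markers were not far from the share of all features. In bulk liver, fewer cells of a type and less RNA per cell cannot be told apart, and the part of these shifts in the results that follow was not tested.

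Of the 10 members, 6 rose and 1 fell on the restricted diet at an adjusted p under 0.05 (limma's moderated test with Benjamini-Hochberg adjustment over all features), and 3 did not pass. Across all features 27.5% passed, 14.6% higher and 12.8% lower. The members that rose were Elovl2, Elovl3, Elovl5, Elovl6, Fads1 and Fads2, and the one that fell was Fads3. Elovl1, Elovl7 and Scd2 did not pass. In the 7 called members every mouse of one diet lay on the same side of every mouse of the other, as it did in 44.8% of all features. The median difference (restricted minus control, log2) was 1.30 over the members and 0.12 over all features, and the median size regardless of sign was 1.45 against 0.45. No member was saturated on any array. Levels in what follows are log2 signals relative to the array's 75th percentile, and they are not compared between genes because each probe has a brightness of its own.

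**Figure D1:**
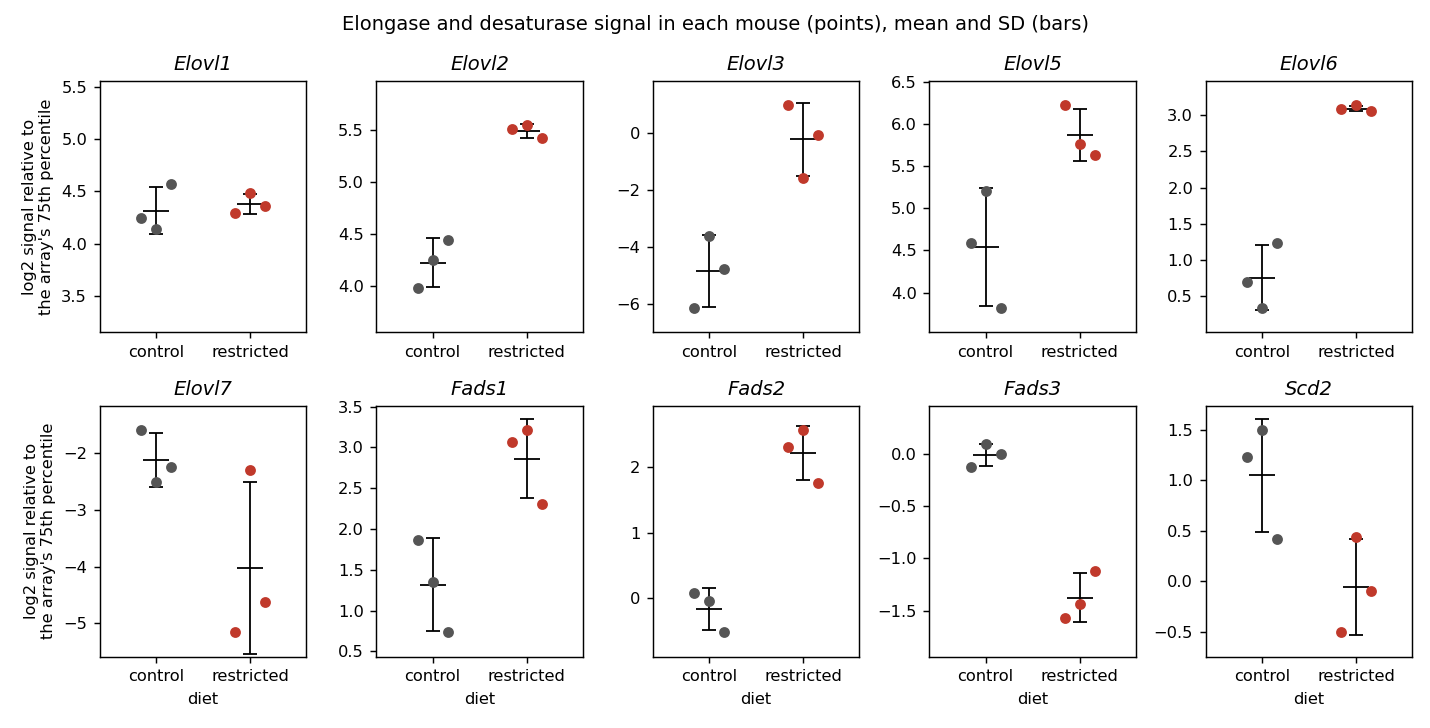
Log2 signal of each member relative to the array's 75th percentile, for the 3 control and 3 restricted mice; each point is a mouse, and the bars are the mean and SD of a diet. Points of the diets do not overlap for Elovl2, Elovl3, Elovl5, Elovl6, Fads1, Fads2 and Fads3, and overlap for Elovl1, Elovl7 and Scd2.

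The desaturases that act on essential fatty acids rose. Fads2 makes the first, rate-limiting desaturation of linoleic and alpha-linolenic acid, and its level was 0.08, −0.05 and −0.52 in control mice 1 to 3 and 2.30, 2.56 and 1.76 in restricted mice 1 to 3. Every restricted mouse stood above every control mouse. The means were −0.16 ± 0.32 and 2.21 ± 0.41 (SD, n = 3 each), a difference of 2.37 on the log2 scale (SE 0.27, adjusted p = 0.00126 by limma), or 5.17-fold. The dimmer Fads2 probe gave 2.12 (SE 0.23, adjusted p = 0.00108), so both probes rose by a similar amount. Fads1, which makes the last desaturation on the way to arachidonic and eicosapentaenoic acid, read 1.87, 1.35 and 0.73 in control mice and 3.06, 3.21 and 2.31 in restricted mice. Here too the diets did not overlap, though control mouse 1 and restricted mouse 3 came close to each other. The difference was 1.54 (SE 0.36, adjusted p = 0.0191), or 2.92-fold, with means of 1.32 ± 0.57 and 2.86 ± 0.48 (SD). Leaving out control mouse 2, restricted mouse 1 or restricted mouse 2 took the adjusted p to 0.0596, 0.0556 and 0.0673.

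The elongases of polyunsaturated chains rose alongside them. Elovl5, which lengthens the products of Fads2, read 4.59, 5.21 and 3.82 in control mice and 6.23, 5.76 and 5.64 in restricted mice. The lowest restricted mouse was above the highest control mouse, and the control mice were the more scattered. The means were 4.54 ± 0.70 and 5.88 ± 0.31 (SD), a difference of 1.33 (SE 0.36, adjusted p = 0.0342), or 2.52-fold. This call was lost without control mouse 1 (adjusted p = 0.0849) and without restricted mouse 1, 2 or 3 (0.0927, 0.0813 and 0.0584), with no background filter (0.0644) and with quantile normalization (0.0753). Elovl2, which carries the chains on towards docosahexaenoic acid, read 3.99, 4.25 and 4.45 in control mice and 5.50, 5.54 and 5.42 in restricted mice. The restricted mice lay close together and about a unit above the highest control mouse. The difference was 1.26 (SE 0.18, adjusted p = 0.00318), or 2.39-fold, from means of 4.23 ± 0.23 and 5.49 ± 0.06 (SD).

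Among the elongases of saturated and monounsaturated chains, Elovl6 and Elovl3 rose and Elovl1 did not pass. Elovl6 turns palmitate into stearate and is the elongase most closely tied to new fatty acid synthesis. Its level was 0.70, 0.34 and 1.24 in control mice and 3.08, 3.14 and 3.06 in restricted mice. The restricted mice were almost level with each other, and all were well above the control mice. The difference was 2.33 (SE 0.25, adjusted p = 0.000986), or 5.03-fold, with means of 0.76 ± 0.45 and 3.09 ± 0.04 (SD).

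Elovl3 makes very long saturated and monounsaturated chains and is best known from brown fat and skin glands. It had the largest difference of the members and ranked 65 among all 19616 features by the size of the difference, whatever its sign. It read −6.12, −3.61 and −4.75 in control mice and 0.95, −1.57 and −0.07 in restricted mice. The diets were well apart, but mice of one diet were widely scattered. The probe was well above background on 5 of 6 arrays, the exception being control mouse 1. The fitted difference was 4.60 (SE 0.79, adjusted p = 0.00632), from means of −4.83 ± 1.26 and −0.23 ± 1.27 (SD). With control mouse 1 raised to the lowest signal measured well above background on its array, the difference was 4.28. Normexp background correction with an offset, which compresses dim signals, gave 2.52 (adjusted p = 0.00516), so the size depends on the treatment of background while the call does not. Elovl1, which lengthens saturated chains for ceramides, read 4.24, 4.14 and 4.57 in control mice and 4.30, 4.49 and 4.36 in restricted mice. The values were interleaved, and the difference was 0.06 (95% interval −0.37 to 0.50, adjusted p = 0.83). The dimmer Elovl1 probe gave 0.19 (SE 0.23, adjusted p = 0.577).

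**Figure D2:**
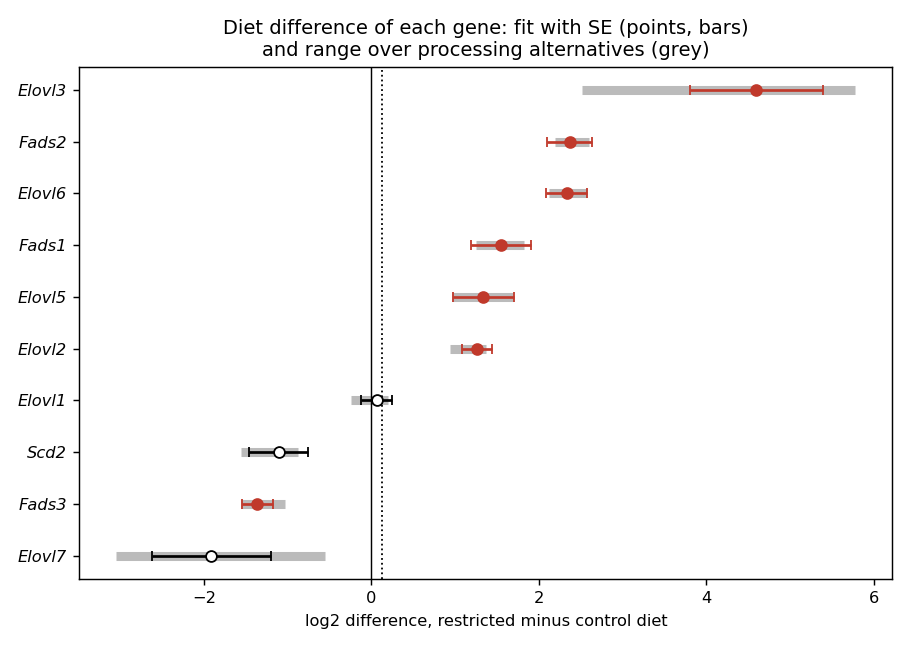
Difference between restricted and control diet for each member on the log2 scale, with its SE as bars, the range over the processing alternatives in grey and the median of all features as a dotted line; filled points passed an adjusted p under 0.05. Elovl3 stands highest at 4.60 with the widest grey range of the 6 that rose, and Fads3 at −1.36 is the member below 0 that passed.

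The remaining 3 members had lower means on the restricted diet, and of these Fads3 passed the test. Fads3, a desaturase of sphingoid bases, read −0.12, 0.09 and −0.00 in control mice and −1.57, −1.44 and −1.12 in restricted mice. The control mice were nearly level, and all restricted mice lay about a log2 unit or more lower. The difference was −1.36 (SE 0.19, adjusted p = 0.00256), 2.57-fold lower, with means of −0.01 ± 0.11 and −1.38 ± 0.23 (SD). Scd2, a stearoyl-CoA desaturase that is abundant in brain and in young liver, read 1.23, 1.50 and 0.42 in control mice and −0.50, 0.44 and −0.10 in restricted mice. Restricted mouse 2 stood just above control mouse 3, so the diets overlapped. The difference of −1.10 (SE 0.35) missed the threshold at an adjusted p of 0.0562, and it passed without control mouse 3 (−1.42, adjusted p = 0.02), with array weights (−1.18, 0.0198) and with normexp (−0.99, 0.043). Elovl7, an elongase of saturated very long chains, read −1.60, −2.52 and −2.24 in control mice and −5.16, −2.30 and −4.62 in restricted mice. Restricted mouse 2 sat among the control mice, and the probe was well above background in 3 control mice and 1 restricted mouse. The difference of −1.91 (SE 0.71) had an adjusted p of 0.0889. It was −0.55 (adjusted p = 0.142) with normexp and −2.77 without restricted mouse 2 (adjusted p = 0.00446). The macrophage, stellate and proliferation markers given above fell in these same restricted mice, and whether the lower signals of Fads3, Scd2 and Elovl7 came from those cells was not tested.

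The balance between members was compared within each array for 4 pairs. The exact two-sided permutation tests used cannot go below p = 0.1 with 3 mice against 3. The log2 ratio of Fads2 to Fads1 signal was −1.79, −1.39 and −1.25 in control mice and −0.76, −0.65 and −0.55 in restricted mice. Every restricted mouse was higher, by 0.82 on average (exact p = 0.1, the smallest possible, and 0.4 after adjustment over the 4 ratios). Elovl2 against Elovl5 shifted by −0.08 (exact p = 0.9), Elovl6 against Elovl5 by 1.00 (exact p = 0.4) and Elovl3 against Elovl6 by 2.27 (exact p = 0.2), and in these 3 ratios the diets overlapped. These ratios show unequal change of a pair of probes and carry no information on enzyme activity.

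All control mice and restricted mouse 1 were hybridised on one slide, and restricted mice 2 and 3 on another, so slide and diet are partly confounded. With the slide as a block the estimate is that of restricted mouse 1 against the control mice, with that lone mouse taken to vary like the others. Elovl3 (5.78, adjusted p = 0.0137), Elovl6 (2.32, 0.0115), Fads2 (2.46, 0.0122), Elovl2 (1.27, 0.0297) and Fads3 (−1.56, 0.0127) passed with the block. Elovl5 (1.69, adjusted p = 0.0805) and Fads1 (1.74, 0.0792) did not, although their differences were larger than with all mice. On slide 1 by itself Elovl2 also missed the threshold (adjusted p = 0.0635) and Elovl7 passed it (−3.04, 0.0119). No member with a difference past the threshold changed sign. Of the partner genes named in the paragraphs that follow, Fads6, Tecr, Hacd1, Slc27a2, Ppara, Mlxipl, Scap and Srebf2 did not pass with the block (adjusted p 0.0554 to 0.217).

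Several members sit side by side on chromosome 19, and their direction differed between neighbours. In the gene order of RefSeq's GRCm38.p6 annotation, Fads3, Fads2 and Fads1 follow each other, with Rab3il1 and then Best1 on one side and Fen1 and then Tmem258 on the other. Fads3 fell by 1.36 on the log2 scale next to Fads2, which rose by 2.37, and Fads1, which rose by 1.54. The flanking genes, given for their position and not for their values, did not move with Fads2 and Fads1: Fen1, a DNA replication and repair nuclease, differed by −1.40 (adjusted p = 0.00259) and Tmem258 by −0.15 (adjusted p = 0.506). Rab3il1 differed by −1.72 with an adjusted p of 0.0495, which was lost on leaving out any one mouse, and Best1 was not tested. Scd2 lies among the other stearoyl-CoA desaturases in the order Scd3, Scd2, Scd4 and Scd1. Scd1, the main stearoyl-CoA desaturase of adult liver, rose by 2.92 (SE 0.22, adjusted p = 0.000389), while Scd2 differed by −1.10 and Scd4 by 0.21 (adjusted p = 0.627). The brightest Scd3 probe rose by 2.63 (adjusted p = 0.00109), but the other Scd3 probes gave 0.89 (adjusted p = 0.0158) and −0.08 (adjusted p = 0.863), so the value of that gene is uncertain. Of the 5 further desaturases tested, 3 were called higher by their brightest probe, Scd1, Scd3 and Fads6, against 14.6% of all features. Fads6 rose by 0.83 (adjusted p = 0.0274), a call that was lost without control mouse 1 or 2 or restricted mouse 2 or 3 (0.0821 to 0.0947). A dimmer Fads6 probe gave 0.93 (SE 0.19, adjusted p = 0.0128).

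**Figure D3:**
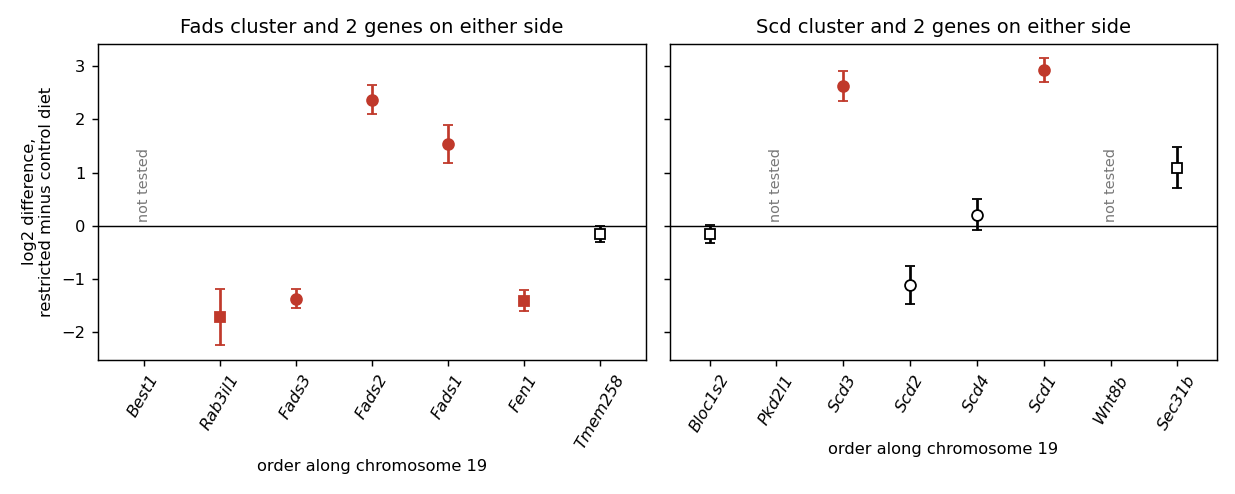
Difference between restricted and control diet (log2, with SE) of the genes around the Fads genes and around the stearoyl-CoA desaturases of chromosome 19, in gene order with no distances; circles are genes of the clusters, squares their neighbours, and filled symbols passed an adjusted p under 0.05. Fads2 and Fads1 lie above 0 between Fads3 and Fen1 below 0, and Scd3 and Scd1 lie above 0 on either side of Scd2 and Scd4; genes marked as not tested did not pass the background filter.

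The promoter table held 7 of the 10 members, with 9 windows, and the 250 bases before the start of 4 of them are shown to set members that rose (Elovl5, Elovl6, Fads2) beside the neighbour of Fads2 that fell (Fads3). They are RefSeq sequences of GRCm38.p6, 5′ to 3′ on the strand of the gene. Elovl5 is at chr9:77917115-77917364 (plus strand), Elovl6 at chr3:129532136-129532385 (plus), Fads2 at chr19:10101504-10101753 (minus) and Fads3 at chr19:10041298-10041547 (plus). Capitals mark the motifs that were found.
Elovl5: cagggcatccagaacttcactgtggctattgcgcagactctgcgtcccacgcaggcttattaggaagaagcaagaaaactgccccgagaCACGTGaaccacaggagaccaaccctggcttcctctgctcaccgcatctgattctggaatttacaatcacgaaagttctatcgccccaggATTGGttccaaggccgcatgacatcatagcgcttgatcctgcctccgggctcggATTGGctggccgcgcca
Elovl6: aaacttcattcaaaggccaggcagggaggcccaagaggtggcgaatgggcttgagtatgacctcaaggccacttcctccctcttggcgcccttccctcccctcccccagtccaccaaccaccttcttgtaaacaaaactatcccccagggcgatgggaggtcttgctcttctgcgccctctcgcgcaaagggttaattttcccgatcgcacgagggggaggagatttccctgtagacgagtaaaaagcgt
Fads2: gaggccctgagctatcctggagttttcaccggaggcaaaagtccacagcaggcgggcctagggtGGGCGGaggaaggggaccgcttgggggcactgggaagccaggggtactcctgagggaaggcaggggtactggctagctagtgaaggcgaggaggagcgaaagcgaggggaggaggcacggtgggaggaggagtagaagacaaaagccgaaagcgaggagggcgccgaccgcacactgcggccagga
Fads3: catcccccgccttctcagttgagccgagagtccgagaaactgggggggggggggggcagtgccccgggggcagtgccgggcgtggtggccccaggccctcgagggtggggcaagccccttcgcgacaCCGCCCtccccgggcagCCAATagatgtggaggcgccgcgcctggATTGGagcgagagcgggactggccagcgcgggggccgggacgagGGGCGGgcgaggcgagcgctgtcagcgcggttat
The motifs searched on both strands were the sterol regulatory element TCACNCCAC, the E box CACGTG, the CCAAT box CCAAT, the GC box GGGCGG, and direct repeats of AGGTCA with 1 base (bound by PPAR receptors) or 4 bases (bound by LXR receptors) between them. None of these contains another. The GC box was in 6 of the 9 member windows, against 32.7% of 32851 windows of the same length. The CCAAT box was in 3 of 9, those of Elovl1, Elovl5 and Fads3, against 33.8% of all windows. The E box was in 1 of 9, that of Elovl5, against 6.02%. The sterol regulatory element, in 1.05% of all windows, and the direct repeats, in 0.0335% and 0.0152%, had no match in the 9 windows. These are matches of letters, and an absent match says only that those letters are not in the window.

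Partners of the members in the same reactions were followed through gene lists. Their genes were chosen by function, but with earlier results of these data known, so the lists are not independent of the data. In the elongation cycle 2 of 6 tested partners rose and 1 fell, against 27.5% called among all features. Tecr, which makes the last reduction of the cycle, rose by 0.92 (SE 0.20, adjusted p = 0.0155), and Hacd1, a dehydratase of the cycle, by 0.78 (adjusted p = 0.0374). Hacd4, a dehydratase paralogue, fell by 1.85 (adjusted p = 0.00483, and by 0.92 with normexp). The Tecr call was lost without control mouse 2 (adjusted p = 0.0615) or restricted mouse 2 (0.064), and the Hacd1 call without control mouse 2 or 3 or restricted mouse 1 or 2 (0.0761 to 0.129). Among the electron donors of desaturases 2 of 5 rose, a share not far from that of all features. They were Cyb5r3, the NADH-cytochrome b5 reductase, by 1.71 (SE 0.21, adjusted p = 0.00166) and Cyb5b, the cytochrome b5 of the outer mitochondrial membrane, by 1.41 (adjusted p = 0.00135). Cyb5a, the cytochrome b5 of the endoplasmic reticulum, was saturated on all 6 arrays, so a change in it could not be measured.

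Most of the tested genes that supply or activate acyl chains rose. Of 10 genes of fatty acid synthesis and its precursors 8 rose and 2 did not pass, with a median difference of 1.03. Among all features 14.6% were called higher. Malic enzyme Me1, a source of NADPH, rose from 1.42, 1.94 and 1.30 in control mice to 4.33, 4.09 and 4.17 in restricted mice, a difference of 2.65 (SE 0.22, adjusted p = 0.000459). Acss2, which makes acetyl-CoA from acetate, rose by 2.61 (adjusted p = 0.000334), Acacb, an acetyl-CoA carboxylase, by 2.63 (adjusted p = 0.000693) and Gpam, the first acyltransferase of triglyceride synthesis, by 1.33 (adjusted p = 0.0078). Of 11 acyl-CoA synthetases, which activate fatty acids, 6 rose and 1 fell, against 27.5% of all features called in either direction. Acsl1, the main long-chain synthetase of liver, rose by 2.21 (adjusted p = 0.00206, 1 array saturated) and Acsm3, a medium-chain synthetase, by 2.19 (adjusted p = 0.000443). Slc27a2 and Slc27a1 are fatty acid transport proteins with very long-chain synthetase activity. The Slc27a2 probe was saturated in all 3 restricted mice and in no control mouse, and its signal was at least 2.38-fold higher (adjusted p = 0.00618, and 0.0608 with the slide as a block). Slc27a1 rose by 1.08 (adjusted p = 0.0104).

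Peroxisomal genes, which shorten very long chains and make the last step to docosahexaenoic acid, rose in 9 of 15 cases, and the other 6 did not pass, with a median difference of 1.01. Among all features 14.6% were called higher and 27.5% were called in either direction. Ehhadh, the bifunctional enzyme of peroxisomal beta-oxidation, rose by 4.43 (adjusted p = 0.00124, 1 array saturated), and Acaa1b, a peroxisomal thiolase, by 4.16 (adjusted p = 0.000584). Abcd3, a fatty acyl importer of the peroxisome, rose by 2.41 (adjusted p = 0.000399), and Hsd17b4, the multifunctional enzyme of the docosahexaenoic acid step, by 1.42 (adjusted p = 0.00126). Among 12 genes that place acyl chains in phospholipid and glyceride, 2 rose and 3 fell, a share not far from that of all features. Dgat2, which completes triglyceride, rose by 1.55 (adjusted p = 0.00148), while the acyltransferases Agpat4 and Mboat1 fell by 2.16 (adjusted p = 0.00047) and 2.03 (adjusted p = 0.00157, and by 0.85 with normexp). The third that fell, Lpcat1, was well above background in the 3 control mice and in none of the restricted mice. On the processed signals it was at least 1.72-fold lower (adjusted p = 0.00424). With normexp its difference was −0.09 (adjusted p = 0.718), so the bound does not hold under that correction. Another Lpcat1 probe, also dim (means −4.18 and −6.89), gave −2.71 (adjusted p = 0.000927 by limma). Of 4 ceramide synthases 1 fell, Cers5, by 1.65 (adjusted p = 0.00118), a share also near that of all features.

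**Figure D4:**
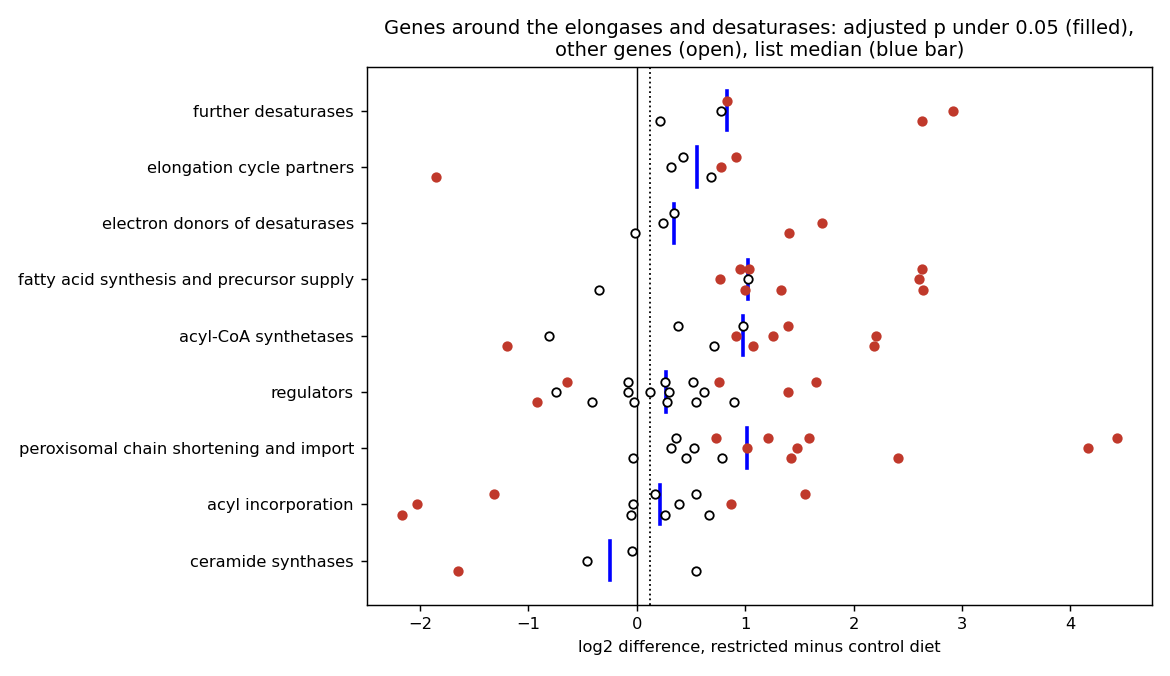
Difference between restricted and control diet (log2) of every tested gene of each pathway list, one row per list; filled points passed an adjusted p under 0.05 the bar is the list's median and the dotted line the median of all features. The medians of fatty acid synthesis (1.03) and peroxisomal genes (1.01) lie above the median of all features at 0.12, and the ceramide synthases lie below it at −0.25.

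Of 18 regulators of these pathways 3 rose and 2 fell, a share near the 27.5% called among all features. Ppara, the fatty acid receptor PPAR alpha, read 3.70, 3.50 and 4.49 in control mice and 5.44, 5.53 and 5.68 in restricted mice, a difference of 1.65 (SE 0.28, adjusted p = 0.00558, and 0.0554 with the slide as a block). Mlxipl, the carbohydrate-responsive factor ChREBP, read 3.54, 3.86 and 4.31 in control mice and 5.08, 5.11 and 5.71 in restricted mice, a difference of 1.40 (adjusted p = 0.00991, and 0.1 with the slide as a block). In both genes the diets did not overlap. Srebf1, the gene of SREBP-1c, read −1.05, 0.03 and 0.58 in control mice and −0.74, −0.06 and 0.75 in restricted mice. Those values were interleaved, and the difference of 0.13 (SE 0.51, adjusted p = 0.877) was smaller than the spread between mice of one diet. Scap, the escort protein of the SREBPs, rose by 0.76 (adjusted p = 0.013, and 0.0526 without control mouse 2). Srebf2, the regulator of sterol synthesis, fell by 0.92 (adjusted p = 0.0252), a call that was lost without control mouse 1 or 2 or restricted mouse 2 or 3 (0.0666 to 0.0858). A dimmer Srebf2 probe gave −1.64 (SE 0.18, adjusted p = 0.00121).

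The features whose profile over the 6 arrays was closest to that of Elovl3, by the root mean square of their differences after each gene's mean was removed, were Mup21 at 0.46 log2 units, Mup6 at 0.52 and Esrrg at 0.69. Mup21 and Mup6 encode major urinary proteins, a family of related genes. Whether their probes also take up transcripts of relatives was not tested, so their values are uncertain. Mup21 rose by 4.93 (adjusted p = 0.000822), and Esrrg, the nuclear receptor ERR gamma, which was not well above background in any control mouse, was at least 7.67-fold higher (adjusted p = 0.00156) on the processed signals. With normexp, which compresses dim signals, its log2 difference was 1.30, and it still passed. For Fads3 the closest were Tnfrsf10b at 0.07 and Fcho1 at 0.07, which fell by 1.45 and 1.29. With normexp those differences were −0.73 and −0.85. Closeness over these 6 arrays includes the difference between the diets itself, so it is a description and not a separate relation.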

How the data were processed

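Cy3-labelled cRNA from 0.2 ug of total RNA of each of 6 mice was hybridised to one array. The intensity values are the processed signals of the deposited scanner files, made with Agilent Feature Extraction 10.7.3.1 per the file headers (9.3.2.1 per the submitters' processing notes). The deposited value table holds the mean of the same intensity values on a linear scale, not centred (column medians 27.52 to 52.12), within 0.1% for 99.67% to 99.77% of probes; this was found by comparison. Outlier spots (127 to 251 of 43020 per array) were left out, and the log2 signals, averaged per probe, were set relative to the 75th percentile of their array. Probes had to be well above background on every measured array of at least 1 diet (24234 of 39429), and the brightest probe of each gene name gave 19616 features. Of the probes, 26055 took their name through a RefSeq accession (GRCm38.p6, used only for names, gene order and promoters).

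Diets were compared with limma 3.58.1 in R 4.3.3 (with the package data.table, version 1.17.8), with Benjamini-Hochberg adjustment over all features and a threshold of 0.05. The fits were tested on simulated data. Where no mouse of a diet had a probe well above background, a bound replaces the fold: the brighter mean against the lowest signal well above background on each array, or, where the brighter diet was saturated, its saturated mean. The members and lists were chosen with earlier results of these data known. The text names all members, up to 4 called genes of each pathway list by smallest p, the 3 nearest profiles to the called member with the largest difference in each direction, and, added later, chromosomal neighbours, Srebf1, Cyb5a and some cell type markers. A gene that this rule names is not reported here. Alternatives were normexp (offset 50), quantile and median scaling, the value table, the filters, moderation with a trend, weights of arrays, a block for mouse number or slide, slide 1 alone, and leaving out each mouse. Mouse numbers were not taken as pairs. The number of arrays limits the precision.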

Additional observations from a re-analysis of the deposited data

How the results depend on the processing

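Across all features 5386 passed, against 3013 with the slide as a block, 2254 on slide 1 alone and 3344 to 5818 when 1 mouse was left out, the fewest without control mouse 2 and 3394 without restricted mouse 2. The pathway lists held 43 called genes, 24 with the slide as a block and 24 on slide 1 alone, which leave restricted mouse 1 alone to stand for its diet. The share of calls that were higher moved from 53.2% to 61.2% with median scaling, where the median of all features was 0.21, and to 37.2% with the slide as a block and 29.1% on slide 1 alone. Elovl3, Elovl6, Fads2 and Fads3 passed under every alternative in which they were tested (Elovl3 was not tested where all 6 arrays had to be well above background). The members called numbered 5 to 8 when 1 mouse was left out. Differences that changed sign were those of Elovl1 (−0.24 with quantile normalization, −0.0221 with the slide as a block and on slide 1 alone, and −0.0271 to 0.191 when 1 mouse was left out, the lowest without control mouse 2) and Scd4 (−0.35 with the slide as a block and on slide 1 alone), neither of which passed in any case. The ratio of Elovl2 to Elovl5 ran from −0.399 to 0.395 when 1 mouse was left out. The cause of these changes was not tested. With the mouse number as a replicate block, 6623 features passed, and of the members also Scd2 (−1.10, adjusted p = 0.0295). Same-numbered mice had deviations that correlated by 0.38, −0.0022 and 0.48. Control mice 1 and 3 matched the restricted mouse of their own number best, and control mouse 2 matched restricted mouse 1 best (0.118). The sample titles give a number and name no pairing, and these few correlations cannot settle whether the mice were paired. Elovl3 in control mouse 1 and Elovl7 in restricted mice 1 and 3 lay too close to background for a measured level.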
